A study of Mus musculus with 4 samples.

Results

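The Hox genes of clusters A to D were followed here between day 7 and day 4 of retinal differentiation. Every gene symbol of the form Hoxa, Hoxb, Hoxc or Hoxd plus a number was taken from the platform annotation, and each gene was read from a probe set that named it alone. That gave 36 genes among the 22180 genes measured, 9 in cluster A, 10 in cluster B, 9 in cluster C and 8 in cluster D. A further 2 genes, Hoxa11 and Hoxd4, had only probe sets shared with another gene. The samples were aggregates grown in matrigel under a retinal differentiation protocol from mouse embryonic stem cells, 2 collected at day 7 and 2 at day 4. All 4 came from wild-type cells of 1 reporter line, a derivative of EB5 (129/Ola) in which GFP sits under the Rx promoter. Whole aggregates were used, so each array holds the RNA of every cell type in them. Whether the 2 arrays of a day came from separate cultures is not in the labels, so p-values speak only of the spread among these 4 arrays, and that spread may be technical.

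Hox genes encode homeodomain transcription factors that give cells along the body axis their position. They lie in 4 clusters in mammals, and their order in a cluster follows the order in which they come on, from the low paralog numbers of the hindbrain to the high ones of the tail and limb ends. Retinoic acid, Wnt and FGF signals and the Cdx factors switch them on, Polycomb complexes keep them silent, and the TALE homeodomain proteins of the Meis, Pbx and Pknox families bind DNA with them. The forebrain and the eye that grows from it form in front of the Hox domain of the embryo, and Hox genes are not expressed there.

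Hoxa2 and Hoxb1 had the largest differences between days among the 36 genes, and their upstream sequences are shown for that reason. Each run is the 250 bases before the gene's start in the RefSeq table of build GRCm38.p6, written 5′ to 3′ on the gene's strand. Capitals mark TGACAG, the site bound by Meis and Pknox proteins, and TGATNNAT, a composite site of Pbx and Hox proteins, on either strand.
Hoxa2 (chr6:52164832-52165081, minus strand): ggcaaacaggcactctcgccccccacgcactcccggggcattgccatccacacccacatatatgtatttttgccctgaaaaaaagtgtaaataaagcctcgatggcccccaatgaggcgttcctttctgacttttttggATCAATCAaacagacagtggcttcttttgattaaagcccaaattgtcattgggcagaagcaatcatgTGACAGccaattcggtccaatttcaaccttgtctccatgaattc
Hoxb1 (chr11:96365508-96365757, plus strand): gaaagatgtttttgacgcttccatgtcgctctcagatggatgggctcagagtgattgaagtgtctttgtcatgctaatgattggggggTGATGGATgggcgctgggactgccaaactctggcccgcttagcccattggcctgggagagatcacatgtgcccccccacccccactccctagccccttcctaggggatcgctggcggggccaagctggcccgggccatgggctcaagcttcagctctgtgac
The Hoxa2 window held both motifs, TGACAG beginning 44 bases and the Pbx-Hox letters beginning 111 bases before the start, and the Hoxb1 window held the Pbx-Hox letters 162 bases before it. Promoters were matched for 20 of the 36 genes, with 22 windows. TGACAG was found in 2 of these 22 windows (Hoxa2 and Hoxa3), against 15.9% of all 32851 windows. TGATNNAT was found in 4 (Hoxa2, Hoxb1, Hoxb8 and Hoxd11), against 7.68%, and AGGTCA, the half-site of retinoic acid and other nuclear receptors, in 5, against 14.02%. The Hox windows held a median of 12.5 CG pairs, against 6 in all windows, with 6 in Hoxa2 and 7 in Hoxb1. A match is only a run of letters, and binding was not measured.

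The arrays were alike in their overall range, with a median log2 signal of 5.68 and 5.74 at day 7 and 5.74 and 5.77 at day 4. The correlation of replicate arrays over the probe sets, a description with no independent points, was r = 0.991 for day 7 and r = 0.986 for day 4. The Hox genes showed a split between the day 4 arrays that all genes together did not show. At day 4, 31 of the 36 Hox genes were higher in replicate 2 than in replicate 1, by a median of 0.27 log2, against 51.5% of all genes and a median of 0.01. At day 7, 18 of the 36 were higher in replicate 2, by a median of 0.01 log2. The 6 ParaHox genes, relatives of the Hox genes outside the clusters, were also higher in day 4 replicate 2, all 6 of them and by a median of 0.26 log2. The same was seen in all measured genes of the marker lists of forebrain (5 genes, median 0.58), eye field (5, 0.44), midbrain (7, 0.32) and spinal cord (7, 0.23), and in 6 of 7 hindbrain genes, so the split was not limited to Hox genes. Cdx1, Cdx2 and Cdx4 are in both the ParaHox and the spinal cord list. Several other lists did not split this way, with 4 of 8 neural crest genes, 4 of 8 TALE cofactors and 0 of 4 endothelial genes higher in replicate 2. The count was 6 of 11 for upstream regulators and for retinoic acid genes, 2 of 4 for trophoblast and 3 of 5 for endoderm. It was 15 of 19 for Polycomb and trithorax genes and 5 of 6 for mesoderm. Among 1394 olfactory and vomeronasal receptor genes the day 4 replicate 2 minus replicate 1 difference had a median of 0.02 log2. The part of this split in the results below was not tested. Each Hox gene whose difference turned sign with 1 array left out is named as such. In the other gene lists only some genes were followed with an array left out, so turns there may be unnamed.

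**Figure D1:**
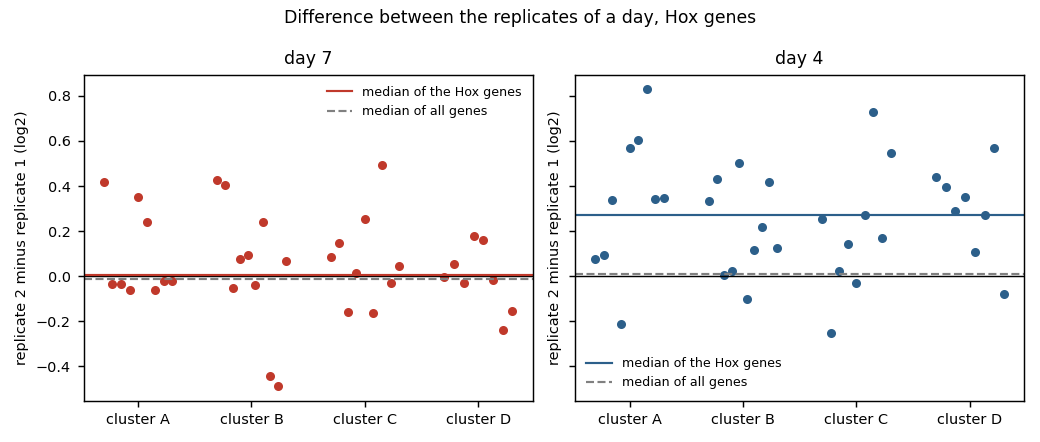
Replicate 2 minus replicate 1 (log2 signal) of each Hox gene at day 7 (left panel) and day 4 (right panel), 1 point per gene in order of paralog number within its cluster. The solid line is the median of the 36 Hox genes (0.01 at day 7, 0.27 at day 4) and the dashed line the median of all 22180 genes; at day 4 most points lie above 0.

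Signal from the Hox genes was low on these arrays. The mean log2 signal over the 4 arrays lay below the median of all genes (6.29) for 35 of the 36, the exception being Hoxb1. The median of the 36 was 4.91, against 3.34 for the receptor genes, which neural cells of this stage are not known to use, and 14 of the 36 lay above the 95th percentile of those receptor genes (5.18). Probe sets differ in how brightly they read with no target present, so these levels place the Hox genes only roughly, and levels of single genes were not set against each other. The files hold no detection calls. For dim genes, background left in the signal makes a fold smaller than the true change.

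**Figure D2:**
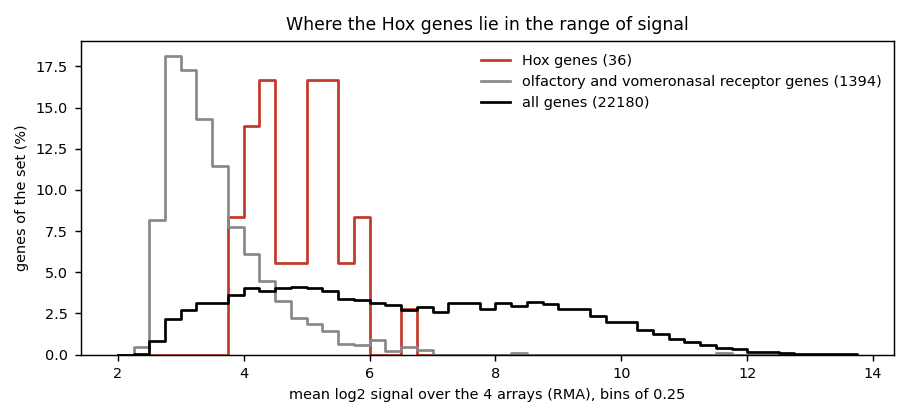
Distribution of the mean log2 signal over the 4 arrays, as the percentage of genes per bin, for the 36 Hox genes, 1394 olfactory and vomeronasal receptor genes and all 22180 genes. The Hox genes sit between 3.75 and 6.59, below most of the range of all genes.

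Between the days, 1 of the 36 Hox genes passed the test and was higher at day 7, and 0 were lower. The test was limma's moderated test with Benjamini-Hochberg adjustment over all 22180 genes, called at an adjusted p under 0.05. Of all genes, 10.5% were called in either direction, 6.15% higher and 4.33% lower, so the Hox genes were called no more often than genes in general. At an unadjusted p under 0.05 there were 4 Hox genes, all higher at day 7: Hoxa2, Hoxb1, Hoxc5 and Hoxb2. Of all genes, 23.1% had such a p, and 12.6% had one and were higher, so this count is under the background as well. Both day 7 values lay above both day 4 values for 10 Hox genes, against a background of 25.6%, and below them for 3, against 25.1%. The count of 10 is close to that background and the count of 3 is under it. The median day 7 minus day 4 difference was 0.05 log2 over the Hox genes and 0.00 over all genes. Leaving out day 4 replicate 1 gave a Hox median of -0.065, and leaving out day 4 replicate 2 gave 0.18.

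Most of the Hox genes were measured closely enough to bound their change in signal. For 34 of the 36 the 95% confidence interval of the difference lay within 1 log2 of 0 on both sides. The same held for 86.7% of all genes and for 96.9% of the receptor genes. The other 2 Hox genes were Hoxa2 and Hoxb1. Among the 34, the intervals of Hoxb2 (0.015 to 0.997) and Hoxc5 (0.046 to 0.784) lay above 0. All of these intervals are limma's, are not adjusted for the number of genes, and speak of signal with its background included. In whole aggregates, fewer cells that express a gene and less RNA per cell cannot be told apart.

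**Figure D3:**
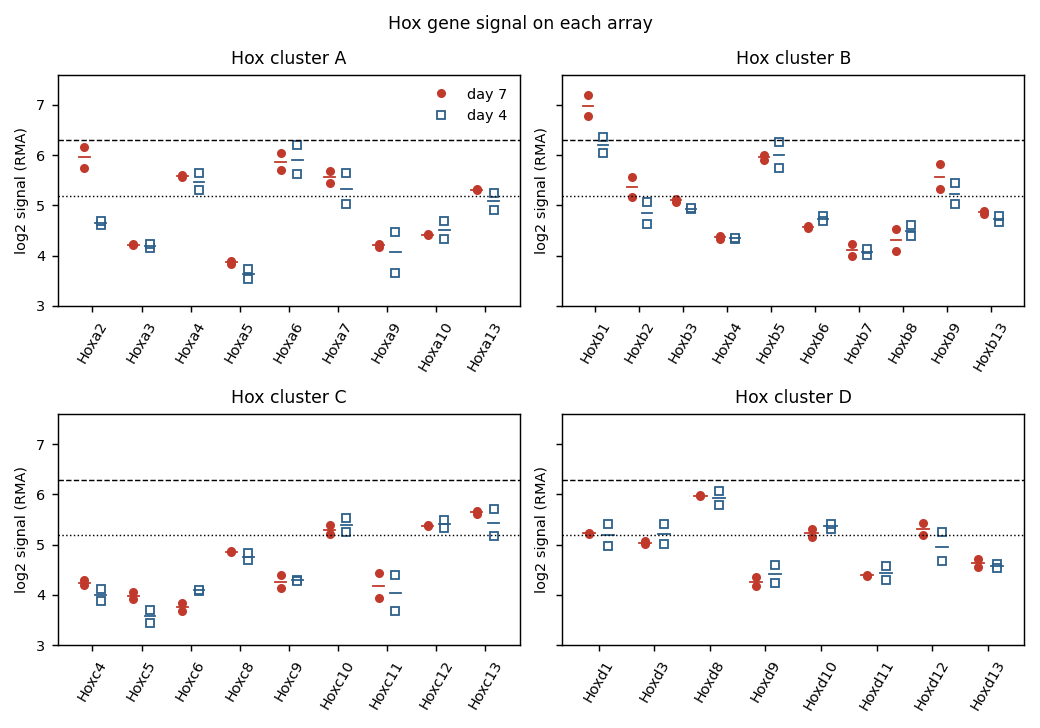
Log2 signal of each Hox gene on each array, in 4 panels by cluster and in order of paralog number. Filled circles are the 2 arrays of day 7, open squares the 2 of day 4 and short bars the mean of each day; the dotted line is the 95th percentile of the receptor genes (5.18) and the dashed line the median of all genes (6.29). Hoxa2 and Hoxb1 are the genes whose days stand farthest apart.

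The largest differences, those of Hoxa2, Hoxb1 and Hoxb2, were in genes of paralog numbers 1 and 2, but Hoxd1 had only 0.03 log2. Paralog numbers are grouped here for description, and the groups were not tested against each other. Hoxa2 (probe set 17466805), which sets the identity of hindbrain segments and of the crest cells of the second pharyngeal arch, stood at 5.75 and 6.17 at day 7, against 4.61 and 4.68 at day 4. The lower day 7 array was still more than 1 log2 above the higher day 4 array. Hoxa2 thus rose 2.48-fold, to 5.96 ± 0.30 at day 7, against 4.64 ± 0.05 at day 4 (SD, n = 2 per day; log2 difference 1.31, SE 0.177, adjusted p = 0.0045 with limma). With each array left out in turn, the difference stayed between 1.10 and 1.52 and the adjusted p between 0.00732 and 0.037.

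Hoxb1 (probe set 17255620), which marks a single hindbrain segment and maintains its own expression there, measured 6.77 and 7.19 at day 7, against 6.03 and 6.37 at day 4. The days did not overlap, but the gap between them was about as wide as that between the replicates. Its difference of 0.78 log2 (SE 0.198, 1.72-fold) had an adjusted p = 0.0514 with limma, just outside the threshold. In a limma fit over all 41345 probe sets its adjusted p was 0.151. The fits counted next draw on the same 4 arrays, so they are not separate support. Of 12 fits, the reported one and 11 with another setting or 1 array left out, 8 called Hoxb1. Its adjusted p was 0.0316 without day 4 replicate 2, and it ranged from 0.0151 to 0.3 over all settings.

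Hoxb2, which acts with Hoxb1 in the nerve cells that move the face and was named after its values were seen, stood at 5.16 and 5.56 at day 7, against 4.64 and 5.07 at day 4. The lower day 7 array and the higher day 4 array lay within 0.1 log2 of each other. The difference was 0.51 log2 (SE 0.208, adjusted p = 0.204), and it was 0.29 with day 4 replicate 1 left out and 0.30 with day 7 replicate 2 left out. Hoxd1, the remaining member with a paralog number under 3 and likewise named after its values were seen, measured 5.22 and 5.22 at day 7, against 4.97 and 5.41 at day 4, so its day 4 arrays lay on either side of the day 7 arrays. Its difference of 0.03 log2 had a 95% interval of -0.39 to 0.46. The differences in these 4 genes therefore ran from 0.03 in cluster D to 1.31 in cluster A, and replicate 2 was the higher array of its day for each of the 4 at day 4 and for Hoxa2, Hoxb1 and Hoxb2 at day 7.

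A probe set shared by Hoxb3 and Hoxb2 gave a further reading of that end of cluster B. It stood at 5.76 and 5.79 at day 7, against 5.35 and 5.45 at day 4, with no overlap between days. In a fit over all 41345 probe sets its difference was 0.37 log2 (SE 0.146, limma adjusted p = 0.296). Which of its 2 genes gave the signal cannot be told. Hoxb3 alone measured 5.13 and 5.08 at day 7, against 4.93 and 4.94 at day 4, a difference of 0.17 log2. Its limma adjusted p was 0.568 in the fit over genes and 0.684 in the fit over all probe sets. Hoxb2 had 0.366 in the fit over all probe sets.

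**Figure D4:**
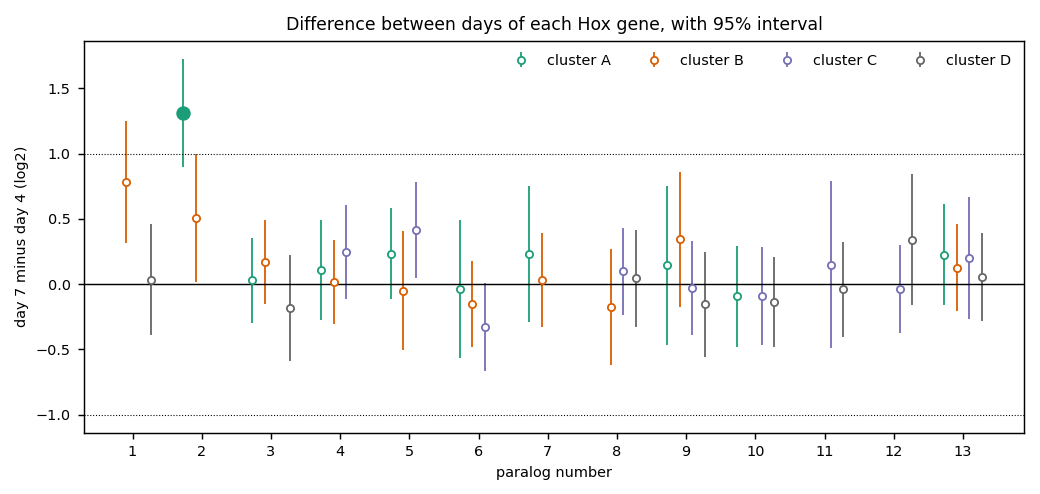
Day 7 minus day 4 difference (log2) of each Hox gene against its paralog number, coloured by cluster, with limma's 95% confidence interval; the filled point passed at an adjusted p under 0.05, and dotted lines mark 1 log2 either way. Hoxa2 and Hoxb1 stand above the other genes, and the intervals of the remaining 34 stay between the dotted lines.

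Of the 17 genes of paralog numbers 3 to 8, 0 were called with limma, against 10.5% of all genes. Their differences ran from -0.33 to 0.42 log2 with a median of 0.03. The largest was that of Hoxc5, which stood at 3.91 and 4.06 at day 7, against 3.70 and 3.45 at day 4. Its days did not overlap, and its difference of 0.42 log2 (SE 0.156) had an adjusted p = 0.165. The lowest was that of Hoxc6, which measured 3.84 and 3.69 at day 7, against 4.08 and 4.11 at day 4 (difference -0.33, SE 0.142, adjusted p = 0.225). Neighbours on cluster C thus differed in opposite directions, both short of the threshold and both at a low signal. Paralog number 6 had differences below 0 in each of its 3 genes, with -0.04 in Hoxa6 and -0.15 in Hoxb6. Paralog number 4 had differences above 0 in its 3 genes, with 0.02 in Hoxb4, 0.11 in Hoxa4 and 0.25 in Hoxc4.

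In several trunk genes the day 4 arrays lay farther apart than the day 7 arrays. Hoxa6 stood at 5.70 and 6.05 at day 7, against 5.62 and 6.19 at day 4, and Hoxa7 measured 5.44 and 5.68 at day 7, against 5.03 and 5.63 at day 4. Hoxb5, a gene used by enteric crest cells, stood at 5.90 and 5.999 at day 7, against 5.75 and 6.25 at day 4. In each of these 3 the days overlapped. The second probe set of Hoxb5 had a difference of -0.20 log2, against -0.05 for the probe set used. Hoxd8 measured 5.99 and 5.96 at day 7, against 5.78 and 6.07 at day 4, a difference of 0.04 log2 (95% interval -0.32 to 0.41). Hoxa3, which shapes the thymus and parathyroid, had a difference of 0.03 log2, Hoxd3 one of -0.18, and Hoxb7 and Hoxb8 ones of 0.03 and -0.18. Hoxa5, a gene of the lung and neck, had 0.24 log2, and Hoxc8, which patterns motor neurons of the lower neck, 0.10.

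The 15 genes of paralog numbers 9 to 13 pattern the lumbar region, the tail and the ends of the limbs. Of these, 0 were called with limma, against 10.5% of all genes. Their differences ran from -0.16 to 0.34 log2 with a median of 0.06. Hoxb9 had the largest in the reported fit, standing at 5.81 and 5.33 at day 7, against 5.02 and 5.44 at day 4 (difference 0.34, SE 0.218, adjusted p = 0.44). Its day 7 replicate 2 lay below the higher day 4 array. The difference was 0.099 with day 7 replicate 1, 0.59 with day 7 replicate 2, 0.13 with day 4 replicate 1 and 0.55 with day 4 replicate 2 left out. Hoxd12, a limb gene, had the next and the largest of cluster D, measuring 5.42 and 5.19 at day 7, against 4.68 and 5.25 at day 4 (difference 0.34, SE 0.213, adjusted p = 0.427). Without day 4 replicate 2 it was 0.63, and without day 4 replicate 1 it was 0.06.

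The genes of paralog number 10, which suppress ribs in the lumbar region, had differences of -0.09 in Hoxa10, -0.09 in Hoxc10 and -0.14 in Hoxd10. The 4 genes of paralog number 13 all had small differences above 0, from 0.06 in Hoxd13 to 0.23 in Hoxa13, which builds the digits together with Hoxd13. Hoxc13, a gene of hair follicles, stood at 5.62 and 5.66 at day 7, against 5.17 and 5.71 at day 4, and its difference of 0.20 (SE 0.199) turned to -0.07 without day 4 replicate 1. Hoxb13, a gene of the tail end and the prostate, stood at 0.13. Hoxa9, used in blood progenitors, measured 4.24 and 4.18 at day 7, against 3.65 and 4.48 at day 4. Its day 4 replicates lay 0.83 log2 apart, the widest such gap among the 36 genes. Hoxc11 had the next, 0.73 log2. Hoxc9, Hoxc12, Hoxd9 and Hoxd11 had differences of -0.03, -0.03, -0.16 and -0.04.

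By cluster, the median difference was 0.14 log2 in cluster A, 0.08 in cluster B, 0.10 in cluster C and 0.00 in cluster D. Differences were above 0 in 7 of 9 genes of cluster A, 7 of 10 of cluster B, 5 of 9 of cluster C and 4 of 8 of cluster D, against 49.3% of all genes. Days did not overlap, with day 7 higher, for 3 genes of cluster A, 4 of cluster B, 3 of cluster C and 0 of cluster D, against the background of 25.6%. With day 7 lower the counts were 0, 1, 1 and 1 in the same order, against 25.1%. The mean log2 signal of cluster D was 5.01 and 5.003 at day 7, against 4.86 and 5.16 at day 4. That of cluster A was 4.96 and 5.04 at day 7, against 4.59 and 4.92 at day 4, so the day 4 arrays lay farther apart than the day means. Clusters were not tested against each other.

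Shared probe sets also gave small differences. Of the 2 probe sets shared by Hoxa11 and its antisense partner Hoxa11os, one had a difference of 0.04 and the other of -0.02 log2, and the probe set shared by Hoxd4 and Hoxd3 had 0.16 (limma adjusted p = 0.717 over all probe sets). The other shared probe sets were those of Hoxa3 with 5730446D14Rik (0.19), Hoxa7 with Mira (0.23) and Hoxb4 with Mir10a (0.03). In the list of non-coding genes inside the clusters and genes at their borders, 18 of 30 were measured. With limma 0 were called, against 10.5% of all genes. At an unadjusted p under 0.05 there was 1 (Smug1, 0.35 log2), against 23.1% of all genes. Hotair, a non-coding RNA of cluster C, stood at 3.92 and 4.10 at day 7, against 3.90 and 4.13 at day 4. Evx1 and Evx2, homeobox genes at the tail ends of clusters A and D, had differences of -0.03 and 0.03 log2. The largest in the list was that of Skap2, an adaptor gene next to the head end of cluster A (-0.51 log2, adjusted p = 0.225, with leave-one-out values from -0.80 to -0.21). Its adjusted p was 0.0357 with day 4 replicate 2 left out, 0.597 with day 4 replicate 1 left out, and 0.36 and 0.646 with day 7 replicate 1 or 2 left out.

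The clusters also hold microRNA genes whose products silence Hox transcripts, and their mature sequences are shown because each pair has 1 seed across clusters. Capitals mark the seed, bases 2 to 8, in the RefSeq sequences of GRCm38.p6.
mmu-miR-10a-5p (cluster B): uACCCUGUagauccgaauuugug
mmu-miR-10b-5p (cluster D): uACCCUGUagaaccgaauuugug
mmu-miR-196a-5p (clusters B and C): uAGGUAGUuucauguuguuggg
mmu-miR-196b-5p (cluster A): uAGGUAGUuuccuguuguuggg
Mir10b, the gene of the second sequence, measured 2.90 and 2.99 at day 7, against 3.10 and 2.94 at day 4. Mir196a-1 stood at 4.89 and 4.74 at day 7, against 4.92 and 4.83 at day 4, and Mir196a-2, which yields the same mature sequence, 4.31 and 3.76 at day 7, against 4.18 and 4.08 at day 4. The days overlapped for these 3 genes. Mir615, within cluster C, had a difference of 0.18 log2 (adjusted p = 0.685), and Mir196b was not analysed here. Whether these probe sets read the precursor or the short mature form was not tested.

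The TALE cofactors, with which Hox proteins bind DNA, held several called genes. Of 8 measured members of 9 listed, 4 rose, 0 fell and 4 were not called, with a median difference of 0.50 log2, against 0.00 over all genes. Over all genes 6.15% were called higher and 4.33% lower, and the counts of each list below stand against these shares. Meis1 measured 8.77 and 9.56 at day 7, against 5.83 and 5.49 at day 4, a rise of 11.4-fold (log2 difference 3.50, SE 0.266, adjusted p = 0.000505). Meis2 stood at 9.70 and 10.03 at day 7, against 7.03 and 7.13 at day 4, a rise of 6.88-fold (adjusted p = 0.000186). The days of both genes lay more than 2 log2 apart. Pknox2 rose 4.17-fold (adjusted p = 0.00689), with 9.20 and 9.19 at day 7, against 6.62 and 7.65 at day 4. Pbx2 rose 1.55-fold (adjusted p = 0.0288). Pknox2 lost its call with day 7 replicate 1 left out (0.0553) and with replicate 2 left out (0.05002). Pbx2 lost its call with either day 7 array left out (0.205 for replicate 1, 0.152 for replicate 2) and with either day 4 array left out (0.0654 for replicate 1, 0.0578 for replicate 2). Meis and Pbx proteins also act in the eye and forebrain, where no Hox gene is expressed.

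**Figure D5:**
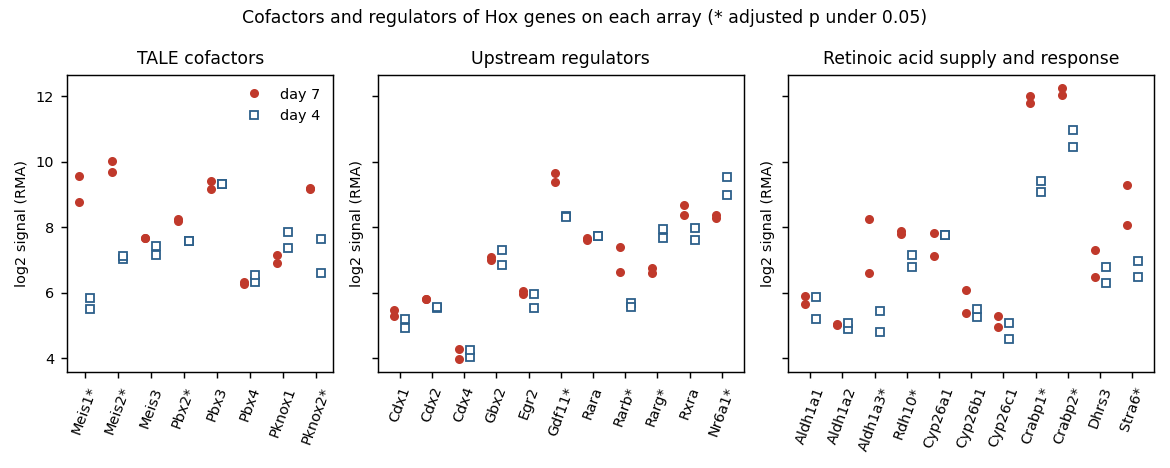
Log2 signal on each array of the TALE cofactors, upstream regulators of Hox genes and genes of retinoic acid supply and response; filled circles are the 2 arrays of day 7 and open squares the 2 of day 4, and an asterisk marks an adjusted p under 0.05 with limma. Meis1, Meis2 and Crabp1 show the widest gaps between the days, and the Cdx genes lie close at both days.

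Genes that act upstream of the Hox clusters changed in both directions. Of 11 measured of 13 listed, 2 rose, 2 fell and 7 were not called, with a median difference of 0.25 log2. Of all genes, 6.15% rose and 4.33% fell by the same test. Rarb, a retinoic acid receptor gene that is itself switched on by retinoic acid, measured 6.63 and 7.38 at day 7, against 5.68 and 5.57 at day 4 (2.61-fold, adjusted p = 0.013, and 0.0504 without day 7 replicate 2). Gdf11, a ligand that times the onset of posterior Hox genes, rose 2.29-fold (adjusted p = 0.00369). Rarg, the receptor gene of early embryonic cells, fell 2.19-fold, to 6.76 and 6.61 at day 7, against 7.96 and 7.66 at day 4 (adjusted p = 0.00587, and 0.0604 without day 7 replicate 2). Nr6a1, a nuclear receptor gene of the trunk, fell 1.91-fold (adjusted p = 0.0276, but 0.173 with day 7 replicate 1 left out and 0.13 with replicate 2 left out). The caudal genes showed no call. Cdx1 stood at 5.28 and 5.47 at day 7, against 4.92 and 5.21 at day 4 (difference 0.31, adjusted p = 0.333), and Cdx2 and Cdx4 had differences of 0.25 and -0.02. Egr2, which switches on Hoxa2 and Hoxb2 in the hindbrain, measured 5.97 and 6.04 at day 7, against 5.55 and 5.96 at day 4 (adjusted p = 0.496).

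In the list of retinoic acid supply and response, 5 of 11 measured genes of 12 listed rose and 0 fell, with a median difference of 0.34 log2. The shares over all genes were 6.15% higher and 4.33% lower. Crabp1, a retinoic acid binding protein gene, rose 6.39-fold, to 11.82 and 12.02 at day 7, against 9.41 and 9.07 at day 4 (adjusted p = 0.000257). Aldh1a3, a retinoic acid synthesis gene, stood at 6.60 and 8.26 at day 7, against 4.80 and 5.44 at day 4 (4.95-fold, adjusted p = 0.0269). Without day 7 replicate 2 its log2 difference was 1.48 in place of 2.31 (adjusted p = 0.0528), without day 7 replicate 1 it was 3.14, and without day 4 replicate 1 the adjusted p was 0.0756. Stra6, the retinol uptake gene, rose 3.88-fold (adjusted p = 0.0188), and its log2 difference of 1.96 became 2.57 with day 7 replicate 1 left out and 1.34 with replicate 2 left out. Crabp2 and Rdh10, a binding protein gene and a retinol oxidation gene, rose 2.70-fold and 1.85-fold, and neither was followed with an array left out. Aldh1a2, the synthesis gene of the trunk mesoderm, measured 5.05 and 5.01 at day 7, against 4.89 and 5.06 at day 4. Cyp26a1, whose enzyme breaks retinoic acid down, was not called either (-0.29 log2, adjusted p = 0.561).

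Among Polycomb and trithorax genes 1 of 19 measured of 22 listed rose, 2 fell and 16 were not called, with a median difference of -0.02 log2. The shares over all genes were 6.15% higher and 4.33% lower. Phc1, a subunit of Polycomb repressive complex 1, fell 2.94-fold, to 9.38 and 9.38 at day 7, against 10.93 and 10.94 at day 4 (adjusted p = 0.000834). Cbx7, the reader subunit of that complex in stem cells, fell 2.66-fold (adjusted p = 0.00338). Bmi1, another subunit of it, rose 1.88-fold (adjusted p = 0.0256, but 0.174 with day 7 replicate 1 left out and 0.0733 with day 4 replicate 1 left out). The core genes of repressive complex 2 were not called, with differences of -0.03 in Eed, -0.02 in Suz12 and 0.40 in Ezh2. Kmt2a, whose product keeps Hox genes active, had -0.03. In the ParaHox list 0 of 6 genes were called with limma, against 10.5% of all genes. At an unadjusted p under 0.05 there were 0, against 23.1%, and Cdx1 had the largest difference.

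Markers of the tissues in which Hox genes are used moved unevenly beside Hoxa2, and their part in its rise was not tested. In the hindbrain list 1 of 7 measured genes of 10 listed rose and 0 fell, against 6.15% and 4.33% of all genes. Lhx5 had the largest difference of that list (1.84 log2, adjusted p = 0.129), at 8.95 and 8.20 at day 7, against 5.63 and 7.83 at day 4, where its replicates lay 2.20 log2 apart. The mean log2 signal of the list was 6.83 and 6.85 at day 7, against 6.08 and 6.495 at day 4. These means include Lhx5 and Epha4 (0.93 log2), which held the largest differences. The median difference of the list was 0.25 log2. The gene that rose was Epha4 (1.91-fold, adjusted p = 0.00996), whose call was lost with day 7 replicate 1 left out (0.0917) and with replicate 2 left out (0.0742). In the list of spinal cord and caudal epiblast 0 of 7 measured genes of 8 listed were called with limma. At an unadjusted p under 0.05 there was 1 (Wnt3a, 1.23 log2, adjusted p = 0.0632), against 23.1% of all genes. Wnt3a was called in 5 of its 11 fits, with adjusted p-values from 0.00333 to 0.317, and its difference was 1.64 with day 4 replicate 2 and 0.82 with day 4 replicate 1 left out. That list averaged 5.36 and 5.52 at day 7, against 5.03 and 5.31 at day 4. In the neural crest list 5 of 8 rose, and Foxd3 fell by 1.05 log2. The rises were 3.28 log2 in Tfap2b, 2.54 in Pax3, 1.92 in Sox10, 1.80 in Snai2 and 1.52 in Twist1. Snai2 and Twist1 were not followed with an array left out. The neural crest list averaged 7.50 and 7.50 at day 7, against 6.02 and 6.10 at day 4, a gap wider than that of the hindbrain list. The adjusted p of Foxd3 was 0.0253, but 0.0666 with day 7 replicate 1, 0.171 with day 7 replicate 2 and 0.0638 with day 4 replicate 1 left out.

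Markers of the tissue in front of the Hox domain were called as well. The share of all genes called was 6.15% higher and 4.33% lower. In the forebrain list 3 of 5 measured genes rose, with log2 differences of 5.16 in Emx2, 4.09 in Fezf2 and 2.31 in Otx1 (that of Fezf2 was 3.37 and 4.82 with day 4 replicate 1 or 2 left out). Otx2, a gene of the early forebrain and midbrain, lay the other way, at 10.25 and 10.55 at day 7, against 10.86 and 11.03 at day 4 (difference -0.54, adjusted p = 0.0898). The list averaged 9.10 and 9.08 at day 7, against 6.51 and 7.12 at day 4. In the list of eye field and retina 3 of 5 rose, with log2 differences of 3.48 in Pax6, 3.15 in Lhx2 and 1.51 in Rax, and with an average of 8.45 and 9.19 at day 7, against 6.36 and 7.08 at day 4. The call of Rax was lost without day 7 replicate 2 (adjusted p = 0.119) or without day 4 replicate 1 (0.052), and Six3 and Six6 were not called (adjusted p = 0.786 and 0.0917). In the midbrain list 2 of 7 rose, Wnt1 and Pax2, with adjusted p-values of 0.117 and 0.108 without day 7 replicate 2, and 0.0505 for Pax2 without day 4 replicate 1. Of other cell types, Foxc1 rose and Tcf15 fell among 6 mesoderm genes, Eomes fell among 4 trophoblast genes, Sox17 rose among 5 endoderm genes and Kdr rose among 4 endothelial genes. Without day 7 replicate 2 the adjusted p was 0.0554 for Foxc1, 0.0824 for Tcf15, 0.205 for Sox17 and 0.148 for Kdr. It was 0.0775 for Tcf15 and 0.139 for Sox17 without day 7 replicate 1, 0.092 for Sox17 and 0.0553 for Kdr without day 4 replicate 1, and 0.0505 for Kdr without day 4 replicate 2.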

How the data were processed

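Total RNA of 4 samples, 2 per day, was profiled on Affymetrix gene arrays, 1 array per sample. The authors deposited log2 values per probe set. Per the submitters' processing notes, Partek 6.5 and RMA were used. Their settings were not given in the sources used here. Precision is limited by the number of arrays, 4 in all.

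The platform annotation gave 1 gene to 23521 of 41345 probe sets and several to 1814. For the 1082 genes with more than 1 such probe set, the probe set brightest on average was taken, giving 22180 genes. The day difference was fitted with limma 3.58.1 in R 4.3.3 (lmFit and eBayes, day as the only term, 2 residual degrees of freedom, two-sided), with Benjamini-Hochberg adjustment over all genes. Adjusted p-values in the text are limma's. The fit was tested on simulated data.

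The Hox genes, the gene lists and the rules below were chosen with earlier results of these data known. Statistics were given for called Hox genes and, per cluster, for those with the largest difference and the highest mean, and the other Hox genes with their values. Of each list of cofactors, regulators, Polycomb and cluster neighbours, up to 3 called genes per direction were named, or the one with the largest difference. Further genes of these lists, and called markers of cell types, were named after their values were seen. The fit was repeated with each array left out, with a block for the replicate number, after quantile normalization or median centring, with filters on level, with an intensity trend and robust prior, and on means over probe sets of 1 gene. Shared probe sets were fitted with all probe sets, a choice made after seeing the data.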

Additional observations from a re-analysis of the deposited data

How the results depend on the processing

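Hoxa2 kept its direction and its call in all 11 fits that kept it. The filter at the 50th percentile of level kept 1 Hox gene, Hoxb1, and left Hoxa2 out. Hox genes called higher numbered 2 in place of 1, Hoxa2 and Hoxb1, with the replicate block, quantile normalization, arrays centred on their median, the filter at the 25th percentile (22 Hox genes kept), the intensity trend with a robust prior and the mean of probe sets, and 1 to 2 with 1 array left out. With the replicate block the adjusted p of Hoxb1 was 0.0151, and 1606 genes were called higher and 1164 lower, against 1364 and 960 without it. The replicate numbers were not taken as pairs, because the labels tie them to no shared culture. Replicate differences of the days correlated across genes with r = 0.186, which cannot decide whether the arrays were paired. The call of Hoxb1 depends on that choice, with a limma adjusted p of 0.0514 without the block. Hox genes called lower numbered 0 throughout. With 1 array left out, calls over all genes ran from 573 to 1378 higher and from 314 to 1122 lower, both lowest without day 7 replicate 1, and the Hox median from -0.065 to 0.18. The Hox median was 0.78 with the filter at the 50th percentile, where Hoxb1 alone remained. A day left with 1 array was assumed to vary like the other day.

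Of the 36 Hox genes, 12 had differences above 0 and 3 below 0 in every fit that kept them, and 21 took both signs, none of them called. Over the fits with 1 array left out, the differences ran in cluster A from -0.016 to 0.078 in Hoxa3, -0.059 to 0.28 in Hoxa4, -0.32 to 0.25 in Hoxa6, -0.072 to 0.53 in Hoxa7, -0.27 to 0.56 in Hoxa9 and -0.26 to 0.077 in Hoxa10. In cluster B they ran from -0.019 to 0.055 in Hoxb4, -0.30 to 0.20 in Hoxb5, -0.088 to 0.15 in Hoxb7 and -0.40 to 0.044 in Hoxb8. In cluster C they ran from -0.16 to 0.10 in Hoxc9, -0.23 to 0.046 in Hoxc10, -0.21 to 0.51 in Hoxc11, -0.12 to 0.051 in Hoxc12 and -0.072 to 0.47 in Hoxc13. In cluster D they ran from -0.19 to 0.26 in Hoxd1, -0.38 to 0.016 in Hoxd3, -0.10 to 0.19 in Hoxd8, -0.33 to 0.021 in Hoxd9, -0.17 to 0.10 in Hoxd11 and -0.022 to 0.13 in Hoxd13. Quantile normalization gave Hoxc12 0.0037, and centring gave Hoxa3 -0.00089 and Hoxb4 -0.014. The cause of these turns was not tested beyond the array left out.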
